A study of Mus musculus with 8 samples.

Results

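The genes described here are 30 nucleolar and rRNA-processing genes, chosen by name as a list of ribosome biogenesis genes. All 30 were found in the count table of 55573 gene IDs, and all 30 passed the filter on low counts that left 12500 tested genes. They were measured by RNA sequencing in sorted naive CD8+ T cells, which are quiescent lymphocytes before any contact with their antigen. Spleen and lymph nodes were the source, from male mice labelled C57BL/6, and CD8a kit enrichment came before flow sorting, with no culture or drug named. The 5 Furin KO libraries came from mice labelled as lacking FURIN, a protease that cleaves precursor proteins in the secretory pathway, and the 3 WT libraries from mice labelled wild type. Age was 7 weeks for the first replicate of each genotype and 8 weeks for the remaining 6 libraries. The labels name no promoter or Cre line for the deletion and do not state whether a library stands for a separate mouse, so the spread behind each p-value may be technical in part.

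Ribosomes are built in the nucleolus. RNA polymerase I transcribes a long precursor rRNA, small nucleolar RNPs (snoRNPs, each a guide RNA with core proteins) mark where it is methylated or pseudouridylated, and a large set of assembly factors cuts, folds and exports the small and the large subunit. Resting T cells make few ribosomes, and the pathway is known to be raised strongly, largely through the transcription factor MYC, when T cells are activated.

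The genes of the pathway also carry part of its guide RNAs. In the GENCODE M21 annotation (GRCm38), 7 of the 30 members held 21 snoRNA genes inside them on the same strand: 5 in Nop56, 4 in Nop58, 3 each in Ncl, Gnl3 and Wdr43, 2 in Tsr1 and 1 in Dkc1. That is 23.3% of the members, against 1.78% of the 10657 protein-coding genes tested. Of the 21 snoRNA genes 12 were listed at 0 counts over all 8 libraries, and the highest, Snord53 in Wdr43, had 137. Of the 12 at 0, 10 share bases with an annotated exon of the host, and 0 of the 9 with counts do. How reads in shared bases were assigned is not known here, so a 0 does not show that the snoRNA is absent. Examples from the hosts Ncl, Nop56 and Nop58 are printed to show what the box C/D proteins bind. Capitals mark the motifs TGATGA (box C, near the start) and CTGA (box D, near the end). The genes lie at chr1:86356261-86356330 (minus strand), chr2:130275506-130275573 (plus strand) and chr1:59704790-59704873 (plus strand).
Snord82, in Ncl: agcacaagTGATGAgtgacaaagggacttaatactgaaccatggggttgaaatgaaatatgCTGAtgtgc
Snord110, in Nop56: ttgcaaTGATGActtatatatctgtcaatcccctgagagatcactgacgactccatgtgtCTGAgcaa
Snord11, in Nop58: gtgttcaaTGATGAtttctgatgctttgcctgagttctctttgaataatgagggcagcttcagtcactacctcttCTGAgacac

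A further feature that the list was not chosen on is the E-box CACGTG, the motif that MYC and related factors are known to bind. It reads the same on both strands. Promoters (250 bases before to 50 after the start, RefSeq on GRCm38.p6) were matched for 26 of the 30 members by symbol, all but Bop1, Fbl, Npm1 and Rrp12. The motif was in 6 of these 26 (23.1%), against 12.1% of the 8938 tested genes with a promoter and 8.09% of all 27025 genes with one. The windows of 30 bases that hold it are printed with the motif in capitals. In Nop2 it began 60 bases upstream of the start, and in the other 5 between base 3 (Pes1) and base 41 (Mybbp1a) of the transcript. A match describes these letters and does not show binding.
Mybbp1a, chr11:72441347-72441376, plus strand: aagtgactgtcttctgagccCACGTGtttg
Nop2, chr6:125131811-125131840, plus strand: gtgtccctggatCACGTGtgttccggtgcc
Pes1, chr11:3963965-3963994, plus strand: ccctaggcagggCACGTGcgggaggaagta
Tsr1, chr11:74898092-74898121, plus strand: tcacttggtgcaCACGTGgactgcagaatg
Utp20, chr10:88826765-88826794, minus strand: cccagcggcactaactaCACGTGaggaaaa
Wdr43, chr17:71616220-71616249, plus strand: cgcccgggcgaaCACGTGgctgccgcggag

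The libraries held 11308220 (Furin KO replicate 5) to 21040431 counts. Naive CD8 T cell markers summed to between 9454 and 11230 CPM (read counts scaled to a common library size) in every library, whereas myeloid markers summed to at most 2.08 CPM, with Csf1r, Adgre1 and Cd14 at 0. Markers of activated or dividing T cells summed to between 11.1 and 16.9 CPM, most of it Top2a, at 8.27 to 13.2 CPM. Cd44, Il2ra, Gzmb and Mki67 were each at most 2.725 CPM. B cell markers stood at 19.5 to 28.7 CPM, nearly all of it Cd79b, with Ms4a1 at 0. NK cell markers stood at 33.6 to 51.5 CPM, nearly all of it Eomes, with Ncr1 at 0, and markers of CD4 or regulatory T cells at 0.4395 to 3.36 CPM. Counts of Furin itself did not separate the labels, at 69.35 ± 11.8 CPM in Furin KO (SD, n = 5) and 63.55 ± 5.71 CPM in WT (n = 3; exact two-sided permutation p = 0.5, smallest possible 0.0179). Counts summed over a gene cannot tell its exons apart, so every direction below is between libraries as labelled. In the deposited table Furin KO replicate 4 has its column between WT columns. Its label was used, and values without it are given where they bear on a result. As these are bulk samples, fewer cells of a type and less RNA per cell cannot be told apart.

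All 30 members were expressed in every library, at mean levels from 10.2 CPM (Fbl) to 733 CPM (Ncl). To set genes beside each other, CPM was divided by the length of all annotated exons in kilobases. On that scale the median member stood at 31.3 CPM per kilobase. Noc2l, a large subunit assembly factor, led with 118 ± 8.54 CPM per kilobase (SD, n = 8 libraries), and Npm1, the nucleolar chaperone nucleophosmin, followed with 115 ± 12.1. Those levels differed by less than their spread. Ncl (nucleolin), the RNA-binding protein that is a main component of the nucleolus, had 71.9 ± 4.98 and the RNA helicase Ddx21 67.3 ± 1.92 CPM per kilobase. The lowest were Fbl with 2.42 ± 0.788 and Wdr12 with 1.999 ± 0.336 CPM per kilobase, which overlapped each other and lay below Polr1a, the next, at 10.1 ± 0.792. Exon lengths take in every annotated transcript, and those of Wdr12 add up to 11955 bases against 4209 for Fbl. For Ncl they add up to 10188 bases, against 2867 for Noc2l and 2665 for Npm1. The order on this scale therefore depends on the annotation. In CPM alone Ncl, at 733, was above Noc2l, at 339.

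**Figure D1:**
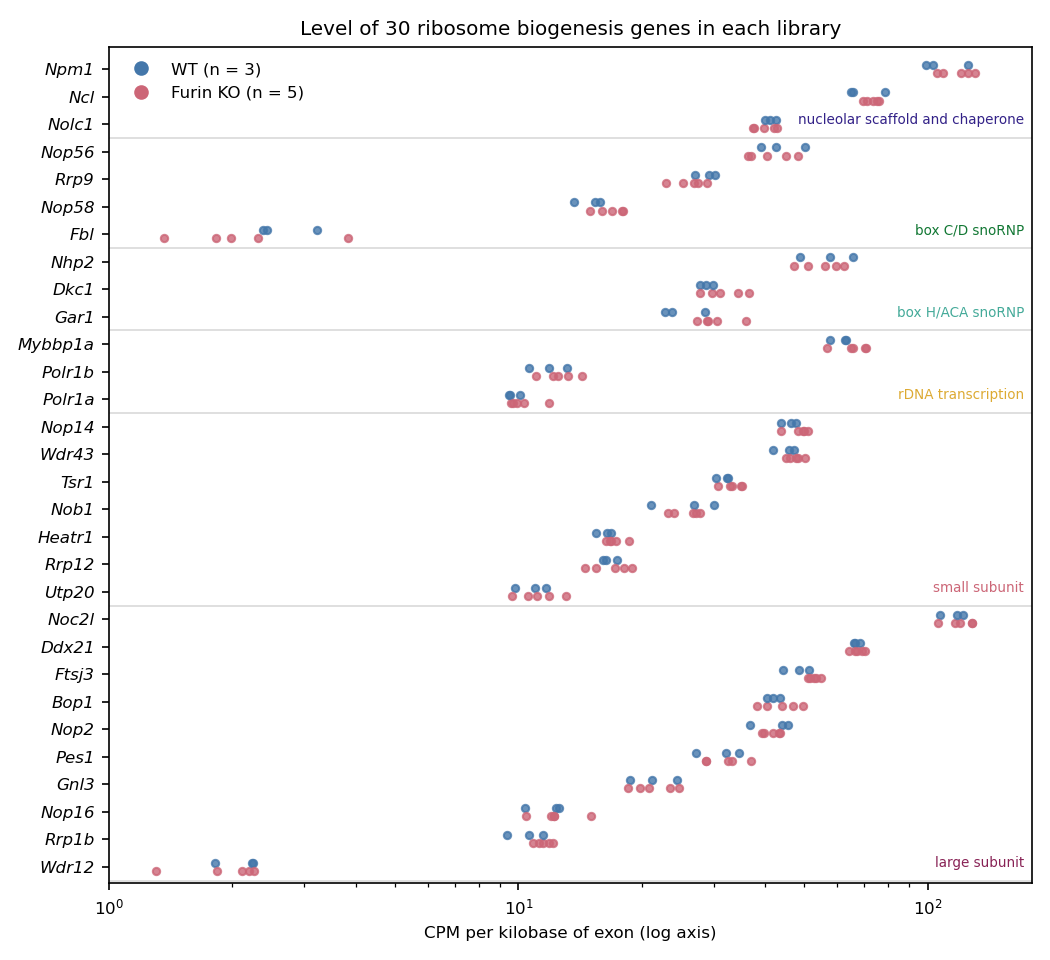
Level of each of the 30 members in each of the 8 libraries, in CPM per kilobase of exon on a log axis, grouped by role; 1 point is 1 library, 3 WT in blue and 5 Furin KO in red. Noc2l and Npm1 lie at the right, Fbl and Wdr12 stand apart at the left, and at every gene the points of the genotypes overlap.

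The spread between libraries was small. The median member had a highest-to-lowest library ratio of 1.31, and 27 of 30 members stayed within 1.5, as did 43.2% of all tested genes. The median coefficient of variation was 8.58% for the members and 15.5% for all tested genes, but the members were also counted more deeply (median 126 CPM against 27.1 CPM), which lowers counting error. Ddx21 was the steadiest, with a ratio of 1.10. The 5 widest were Fbl (2.83), Wdr12 (1.75), Gar1 (1.57), Nop16 (1.45) and Nob1 (1.42).

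The comparison of genotypes asked whether the pathway differs between resting cells of mice labelled Furin KO and WT. No member passed the test, and at each of the 30 the WT and Furin KO ranges overlapped. In the quasi-likelihood test of edgeR, adjusted over 12500 genes by Benjamini-Hochberg, 0 of 30 members had an adjusted p under 0.05, as did 0.0320% of all tested genes. DESeq2 also called 0 of 30 members and 0.120% of all tested genes. An unadjusted p under 0.05 was reached by 1 of 30 members in edgeR and 1 in DESeq2, and by 3.21% of all tested genes in edgeR. The DESeq2 share of all tested genes at that threshold was not counted. At 0 of 30 members were the groups free of overlap, against 2.90% of all tested genes. For 29 of 30 members the 95% interval lay within a 1.5-fold change either way (61.0% of all tested genes), and the exception was Fbl. The members were counted more deeply (median 126 CPM against 27.1 CPM), which narrows such intervals. If libraries share a mouse, the intervals are too narrow to bound a difference between genotypes.

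Fold changes were small and mostly positive. Of the 30 members 22 had a log2 difference above 0 and 8 below, with a median of 0.066 and a range of -0.25 (Fbl) to 0.28 (Gar1). Over all tested genes 49.8% were above 0 and the median was -0.00070. The summed level of the members was 4910 ± 120.1 CPM in Furin KO (n = 5) and 4715 ± 239 CPM in WT (n = 3), a difference of 4.14%. That was less than the SD in WT and more than the SD in Furin KO, and it was not tested. In WT the sums were 4747, 4462 and 4936 CPM in replicate order, and in Furin KO 4846, 4813, 4811, 5046 and 5036 CPM. WT replicate 2 was the lowest, and WT replicate 3 lay above 3 of the 5 Furin KO libraries. Without WT replicate 2 the median log2 difference was 0.027 with 19 of 30 above 0, and without Furin KO replicate 4 it was 0.048 with 20 of 30 above 0. Without WT replicate 1 it was 0.087 with 22 of 30 above 0.

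**Figure D2:**
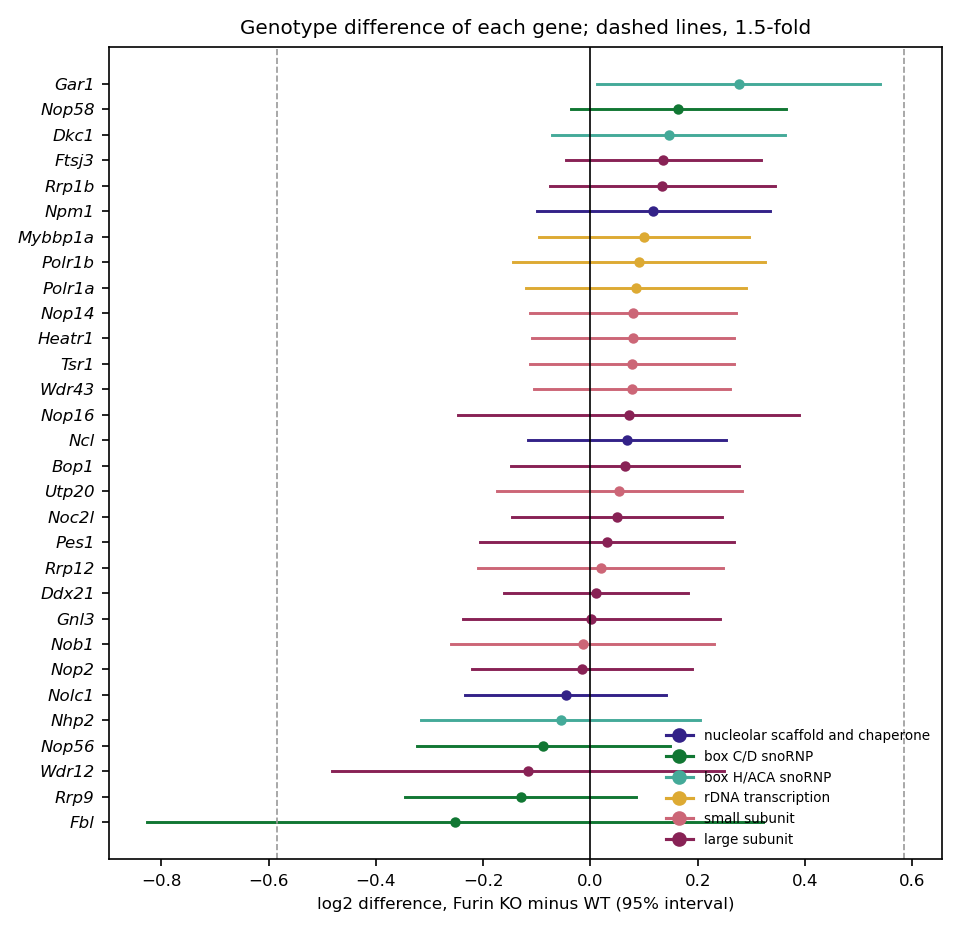
Log2 difference of Furin KO minus WT for each member (edgeR, 5 against 3 libraries), with its 95% interval as a line, coloured by role; dashed lines mark a 1.5-fold change. Gar1 is highest at 0.28 and the only gene whose interval lies above 0 before adjustment; Fbl is lowest at -0.25 and the only one whose interval passes a dashed line.

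The box H/ACA snoRNPs pseudouridylate rRNA, and 3 of their core proteins are members. Summed, these had 246.9 ± 18.6 CPM in Furin KO and 227.5 ± 17.3 CPM in WT, with 2 of 3 log2 differences above 0. Gar1 (ENSMUSG00000028010, chromosome 3, 129824912 to 129831396) had 40.6, 39.1 and 49.0 CPM in the WT libraries and 46.9, 52.5, 49.8, 49.5 and 61.6 CPM in Furin KO. All Furin KO libraries but replicate 1, which lay under WT replicate 3, were above every WT library. The log2 difference was 0.28 (SE 0.13, 95% interval 0.013 to 0.54). This was the lowest unadjusted p of the members (edgeR p = 0.0406), and it did not pass over all genes (edgeR adjusted p = 0.9998; exact two-sided permutation p = 0.0536). The log2 difference of Gar1 was 0.21 without WT replicate 2 and also 0.21 without Furin KO replicate 5. Without both, a pair chosen after the data were seen, it was 0.15. It was 0.30 without Furin KO replicate 4 and 0.39 without WT replicate 3. Dkc1, the pseudouridine synthase dyskerin, had 119, 115 and 123 CPM in WT and 128, 123, 151, 114 and 142 CPM in Furin KO. Furin KO replicates 3 and 5 were high and replicate 4 was narrowly the lowest of all 8 libraries. The log2 difference of Dkc1 was 0.15 (SE 0.10, edgeR adjusted p = 0.9998), or 0.093 without Furin KO replicate 3 and 0.20 without Furin KO replicate 4. Nhp2, the third protein, had 55.9, 66.2 and 75.3 CPM in WT and 54.0, 71.5, 68.4, 64.3 and 58.4 CPM in Furin KO. Its highest library was a WT one, and its log2 difference was -0.056 (SE 0.12), or -0.16 without WT replicate 1 and 0.055 without WT replicate 3.

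The box C/D snoRNPs methylate rRNA. Of their 4 members 1 was above 0 and 3 below, and the sums were 436.9 ± 36.8 CPM in Furin KO and 437.1 ± 38.5 CPM in WT. Nop58, a scaffold protein of the particle (ENSMUSG00000026020, chromosome 1, 59684971 to 59719044), had 166, 147 and 170.2 CPM in WT and 161, 172.4, 194, 182.5 and 192.5 CPM in Furin KO. All Furin KO libraries but replicate 1 were above WT, and the log2 difference was 0.16 (SE 0.096, 95% interval -0.037 to 0.37; edgeR adjusted p = 0.9998), or 0.10 without WT replicate 2 and 0.21 without WT replicate 3. Its partner Nop56 had a log2 difference of -0.088, with 169.8 ± 20.97 CPM in Furin KO and 180.5 ± 23.0 CPM in WT. Rrp9, the protein that binds the box C/D RNA of the small subunit processome, had 88.5, 79.1 and 85.5 CPM in WT and 67.45, 78.6, 74.1, 80.7 and 84.7 CPM in Furin KO. Its lowest libraries were Furin KO ones, with a log2 difference of -0.13 (SE 0.10, edgeR adjusted p = 0.9998), and Parp3, on the opposite strand, shares 20 exonic bases with it. The difference of Rrp9 was -0.082 without Furin KO replicate 1, -0.17 without WT replicate 2 and -0.050 in the 8-week libraries alone.

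Fbl, fibrillarin, is the methyltransferase of these particles and is known as one of the abundant nucleolar proteins. Its listed counts were low: 107 to 204 per library (ENSMUSG00000046865, chromosome 7, 28169710 to 28179269). CPM values were 13.5, 10.0 and 10.2 in WT and 7.66, 8.34, 5.71, 9.72 and 16.2 in Furin KO. Furin KO held both the lowest and the highest library, and the log2 difference was -0.25 (SE 0.27, 95% interval -0.83 to 0.32; edgeR adjusted p = 0.9998). Single libraries moved it widely: leaving out Furin KO replicate 5 gave -0.515, leaving out WT replicate 1 gave -0.0985 and leaving out Furin KO replicate 3 gave -0.11, and the 8-week libraries alone gave -0.034. A sequence search placed 984 bases of Fbl at 96.8% identity in Gm5812, a processed pseudogene (chromosome 17, 6121208 to 6122164) that lies within Tulp4 on the opposite strand. It also placed 690 bases at 99.6% in the Tulp4 transcripts. Gm5812 had 80 counts over the 8 libraries, Tulp4 5390 and Fbl 1398. How reads matching several genes were counted is not given in the sources used here, so the level of Fbl is uncertain, and the part of the copies in it was not tested.

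Npm1 (ENSMUSG00000057113, chromosome 11, 33152287 to 33163206) has a copy that drew many counts. Npm1 had 274.5, 264 and 334 CPM in WT and 281, 291, 347.5, 322.5 and 335 CPM in Furin KO, with a log2 difference of 0.12 (SE 0.10, edgeR adjusted p = 0.9998), or 0.052 without WT replicate 2 and 0.23 without WT replicate 3. The genotypes overlapped throughout, and WT replicate 3 was among the highest. The processed pseudogene Gm15484 (chromosome 5, 110118022 to 110118849), with an aligned stretch of 491 bases at 98.4% identity, was listed at 155, 144 and 178 CPM in WT and 166, 155, 164, 163 and 136 CPM in Furin KO. It made up 28.9% to 37.2% of the sum of the pair, and Furin KO replicate 5, the library of lowest depth, was the lowest for the copy but the second highest for Npm1. Summed, the pair had 472 ± 27.3 CPM in Furin KO and 449.8 ± 55.0 CPM in WT. The log2 difference then was 0.071 (SE 0.094, edgeR adjusted p = 0.9999), from a sum chosen after the data were seen. Of the other members Wdr12, Pes1, Nop56 and Ddx21 had stretches of at least 200 bases at 95% identity or more in other genes. The processed pseudogenes among these had 0 to 304 counts over the 8 libraries. Wdr12 also shared 206 bases with Tmod3 (33066 counts) and 208 with Ppip5k1 (3177 counts), against 3388 counts of its own.

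**Figure D3:**
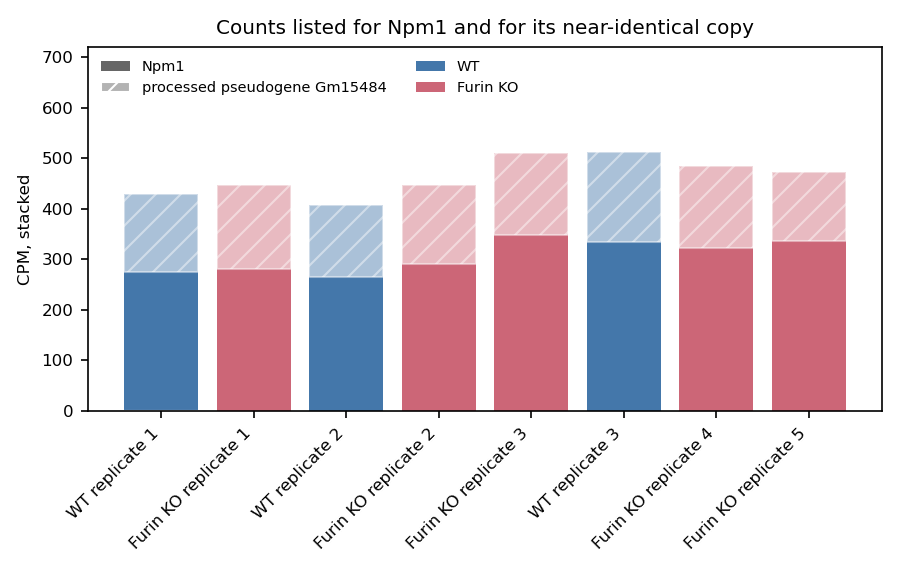
CPM listed for Npm1 (solid) and for its processed pseudogene Gm15484 (hatched), stacked, in each library; WT in blue and Furin KO in red. The copy adds between 136 and 178 CPM in every library, 28.9% to 37.2% of the sum.

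At nucleolin and the remaining scaffold protein the genotypes also overlapped. Ncl (ENSMUSG00000026234, chromosome 1, 86344719 to 86359400) had 669, 662 and 803 CPM in WT and 709, 727, 777, 766 and 749 CPM in Furin KO. The 5 Furin KO libraries lay between the WT ones, and the log2 difference was 0.068 (SE 0.088, 95% interval -0.12 to 0.25). Without WT replicate 1, 2 or 3 it was 0.029, 0.019 and 0.17. Nolc1, a phosphoprotein that accompanies snoRNPs, stood at 159 ± 9.83 CPM in Furin KO and 164 ± 4.96 CPM in WT.

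Of the genes for rDNA transcription, all 3 had log2 differences above 0, and their sum was 576.5 ± 42.7 CPM in Furin KO and 539.4 ± 8.39 CPM in WT. Mybbp1a, a nucleolar protein that acts on rDNA transcription and rRNA processing, had 335, 365 and 366 CPM in WT and 381, 376, 329, 407 and 411 CPM in Furin KO. All Furin KO libraries but replicate 3, the lowest of the 8, were above WT, with a log2 difference of 0.10 (SE 0.093, edgeR adjusted p = 0.9998). It was 0.064 without WT replicate 1 and 0.15 without Furin KO replicate 3. Polr1a, the largest subunit of RNA polymerase I, had 119.6, 112 and 113 CPM in WT and 141, 118, 114, 115 and 123 CPM in Furin KO. Furin KO replicate 1 alone was high, and the log2 difference was 0.085 (SE 0.097), or 0.030 without that library and 0.12 without WT replicate 1. Polr1b, its other large subunit, had a mean of 73.5 ± 7.07 CPM in Furin KO and 69.0 ± 7.47 CPM in WT.

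The 7 small subunit factors had log2 differences from -0.014 to 0.080, 6 of them above 0. Nob1, the endonuclease of the last cut of small subunit rRNA, had 105, 73.6 and 93.9 CPM in WT and 94.7, 81.1, 83.6, 93.0 and 96.6 CPM in Furin KO. WT held both its highest and its lowest library. Its log2 difference was -0.014 (SE 0.12), and 0.080 in the 8-week libraries alone. The processome components Heatr1, Wdr43, Utp20 and Nop14, the export factor Rrp12 and the late assembly factor Tsr1 had log2 differences of 0.019 to 0.080. Tsr1 shares 1240 exonic bases with Srr on the opposite strand, which had 1474 counts against 18072 for Tsr1 over the 8 libraries. Noc2l shares 598 with Samd11, which had 10 counts, and Heatr1 155 with Lgals8, which had 11428. Among the 30 members 16 overlap an annotated gene on the opposite strand, and without a stated strand setting such reads cannot be told apart.

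The 10 large subunit factors had log2 differences from -0.12 (Wdr12) to 0.14 (Ftsj3), 8 of them above 0. Ftsj3, an rRNA methyltransferase, had 223, 193 and 211.5 CPM in WT and 232, 239, 229.5, 223 and 225 CPM in Furin KO. Only WT replicate 1 reached into the Furin KO range. The log2 difference was 0.14 (SE 0.087, edgeR adjusted p = 0.9998; exact two-sided permutation p = 0.0357, not adjusted for 30 members). It was 0.082 without WT replicate 2 and 0.19 without WT replicate 1. Rrp1b, a nucleolar rRNA-processing protein, had 81.9, 72.2 and 88.55 CPM in WT and 91.5, 88.6, 83.6, 93.5 and 86.3 CPM in Furin KO. It was lowest in WT replicates 2 and 1, with a log2 difference of 0.13 (SE 0.10, edgeR adjusted p = 0.9998), or 0.059 without WT replicate 2 and 0.21 without WT replicate 3. Noc2l had 350.1, 307 and 339 CPM in WT and 334, 344, 303, 368 and 369 CPM in Furin KO, so its extremes both came from Furin KO, and the log2 difference was 0.049 (SE 0.093), or -0.0040 without WT replicate 2.

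Pes1, Bop1 and Wdr12 form a complex needed for large subunit rRNA processing. Pes1 had 82.2, 97.5 and 105 CPM in WT and 86.8, 87.1, 98.1, 101 and 112 CPM in Furin KO, a log2 difference of 0.031 (SE 0.11). Wdr12 had 26.8, 21.7 and 26.8 CPM in WT and 15.5, 25.25, 26.2, 21.9 and 27.1 CPM in Furin KO. Furin KO replicate 1 was the lowest, and without it the log2 difference of Wdr12 went from -0.12 to 0.0026. Bop1 stood at 129.9 ± 13.6 CPM in Furin KO and 124 ± 4.502 CPM in WT. Nop16 had 19.15, 23.2 and 22.8 CPM in WT and 22.55, 19.2, 27.8, 22.1 and 22.5 CPM in Furin KO, with Furin KO replicate 3 alone above the rest and a log2 difference of 0.071 (SE 0.15). Gnl3, the nucleolar GTPase nucleostemin, had 149, 114 and 129.6 CPM in WT and 151, 121, 113, 143 and 127 CPM in Furin KO, and its log2 difference was 0.0018 (SE 0.11). The rRNA methyltransferase Nop2 and Ddx21 had -0.016 and 0.010.

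None of the other genes of the pathway passed the genotype test. Of 112 further listed genes 111 were tested, and 0 passed in edgeR or in DESeq2. An unadjusted p under 0.05 was reached by 0 in edgeR and 1 in DESeq2. Over all tested genes 3.21% reached it in edgeR, and the share in DESeq2 was not counted. The log2 differences of the 111 were above 0 at 63 and below 0 at 48, with a median of 0.014. At 4 of the 111, Taf1d, Nip7, Ddx18 and Exosc2, Furin KO lay wholly above WT, and at 0 wholly below. Over all tested genes the groups were free of overlap, in either direction, at 2.90%. Ddx18 and Exosc2 are named after their values were seen. In the snoRNP assembly list 5 of 9 were above 0, with Nufip1 at 0.18 and Znhit3 at -0.29. In the RNA polymerase I list 9 of 13 were above 0, with Taf1d at 0.12 and Twistnb at 0.21. In small subunit assembly 19 of 35 were above 0, with Nol6 at 0.16 and Riok1 at 0.13, and in large subunit assembly 22 of 42, with Nip7 at 0.25 and Rrp15 at 0.26. In the exosome and exonuclease list 8 of 12 were above 0, with Exosc1 at 0.25 and Exosc4 at 0.20. The edgeR adjusted p of each of these 10 genes, the lowest in unadjusted p of their lists, was 0.9998.

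Genes that control the pathway or accompany its rise did not pass either. Myc had 308 ± 79.4 CPM in Furin KO and 245 ± 30.25 CPM in WT. The Furin KO libraries were 362, 312, 170.3, 346 and 352 CPM and the WT libraries 221, 279 and 235 CPM. Furin KO replicate 3 was below all WT libraries and the other 4 above them, with a log2 difference of 0.33 (SE 0.18, 95% interval -0.041 to 0.71; edgeR adjusted p = 0.9998). Mxd4, a repressor of the MYC network, had -0.22. Of the 7 tested genes of the network 3 were above 0, and 0 passed in edgeR. Of 8 genes of activation and division 4 were above 0 and 0 passed, with Pcna at -0.19 and Cd44 at 0.96, from at most 2.725 CPM. Of 10 early response genes 1 was above 0 and 0 passed, with Nr4a1 at -0.31 and Btg2 at -0.13. These genes vary widely between libraries: Junb was at 319 to 516 CPM in WT replicate 2 and Furin KO replicates 2 and 3 and at 989 to 1570 CPM in the others.

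**Figure D4:**
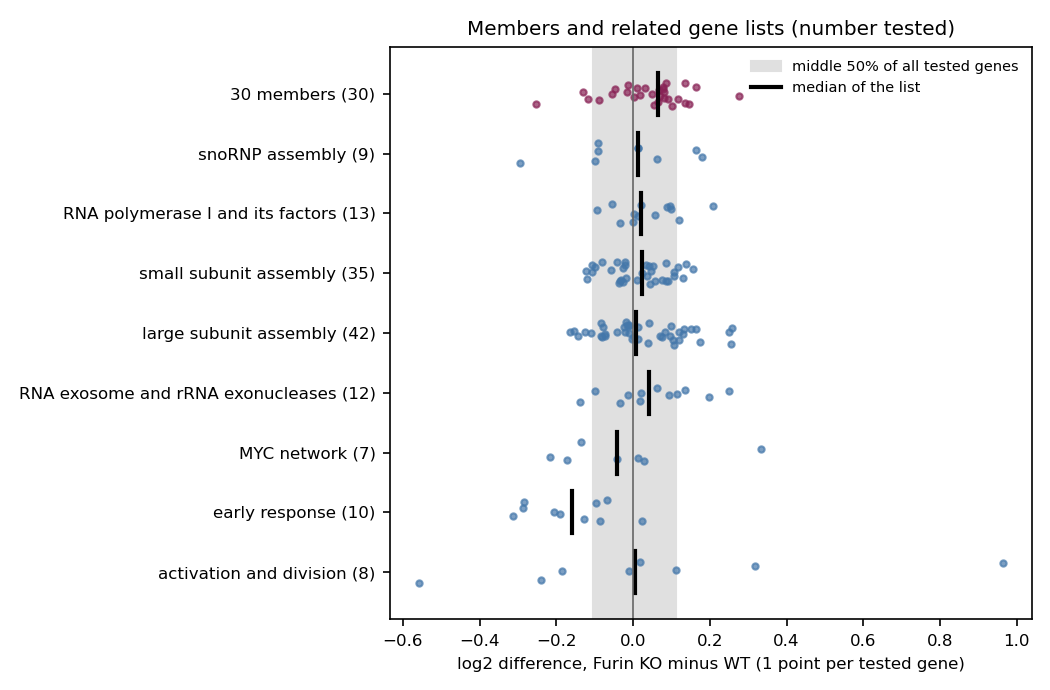
Log2 difference of Furin KO minus WT for the 30 members and for 8 related lists, 1 point per tested gene, with each list's median as a black bar and the middle 50% of all tested genes as a grey band. The medians of the pathway lists lie between 0.0080 and 0.041, that of the members at 0.066 and that of the early response genes at -0.16.

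Titles run from S1 to S8, and the libraries were also set side by side in 3 runs of titles, S1 and S2, S3 to S5 and S6 to S8. The runs were chosen with levels of early response genes known, no label names a batch, and the 7-week libraries are S1 and S2. Fos, an immediate early gene, was at 85.8 to 204 CPM in S3 to S5 and at 801 to 1075 CPM in the other 5 libraries. The values that follow are descriptions with no test. Of the 10 early response genes, Furin KO was above WT at 9 in S1 and S2, 6 in S3 to S5 and 0 in S6 to S8. Within each run the Furin KO sum of the members was above the WT sum: 4846 against 4747 CPM in S1 and S2 (n = 1 and 1), 4812 against 4462 in S3 to S5 (n = 2 and 1) and 5041 against 4936 in S6 to S8 (n = 2 and 1). The count of members above 0 was 18, 21 and 20 of 30 in these runs, where all tested genes gave 50.8%, 49.7% and 50.2%. Gar1 had 46.9 against 40.6, 51.1 against 39.1 and 55.6 against 49.0 CPM. It is shown because it had the lowest unadjusted p of the members in these same libraries, so its order within runs is no separate support.

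Between the 2 runs of 8-week mice, 7 members lay wholly above in S6 to S8 and 1 wholly below, where 9.03% and 9.47% of all tested genes did. The 7 were Nop56, Nob1, Rrp12, Gnl3, Pes1, Rrp9 and Wdr43, named after their values were seen. Nop56 ranged from 149 to 161 CPM in S3 to S5 and from 175 to 197 in S6 to S8. Nob1 ranged from 73.6 to 83.6 CPM and from 93.0 to 96.6. Ddx21 was the one below. WT replicate 2, of the run S3 to S5, was the lowest library at 13 of 30 members and the highest at 0. Over all tested genes it was the lowest at 9.73% and the highest at 10.2%. The part of the low Fos and of the run in these values was not tested.

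**Figure D5:**
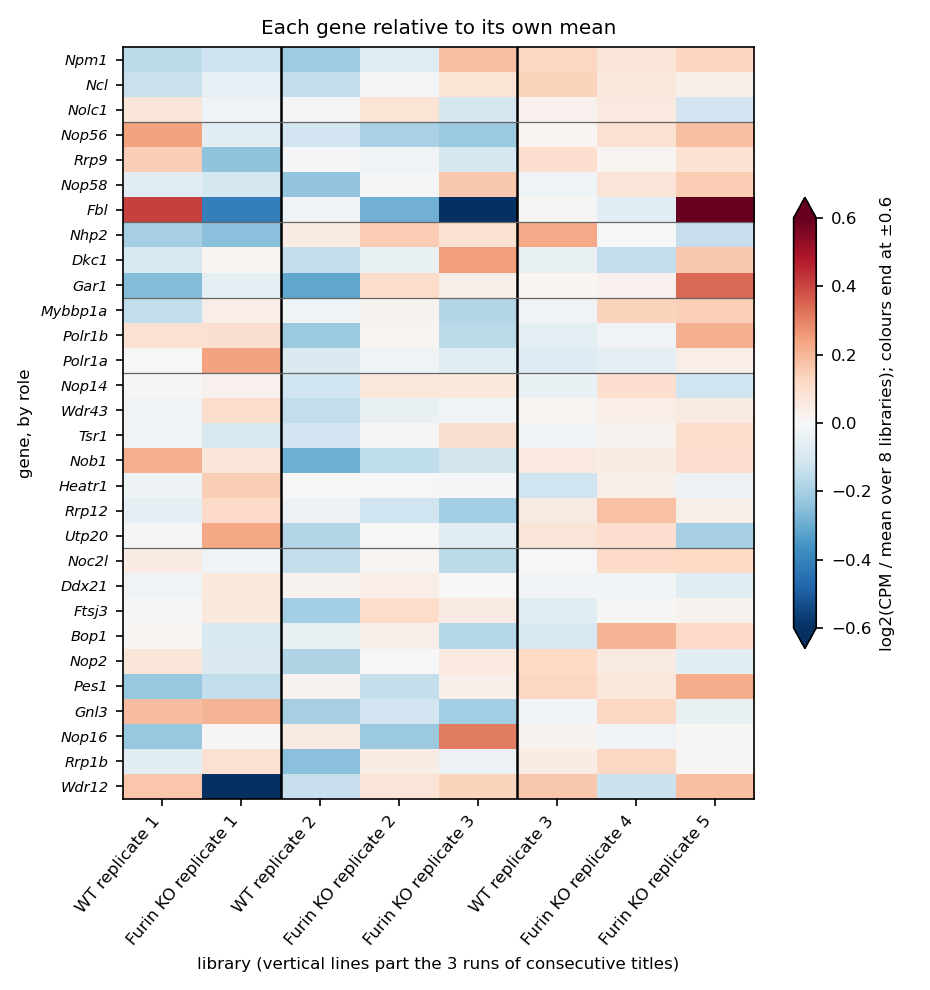
CPM of each member relative to its own mean over the 8 libraries (log2, red above and blue below, colours ending at ±0.6), with genes ordered by role and libraries by title; vertical lines part the 3 runs of titles. WT replicate 2 is the lowest library at 13 of 30 members, and Fbl and Wdr12 show the widest spread.

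Age was the other labelled difference, with 2 libraries of 7 weeks and 6 of 8 weeks, fitted with genotype as a covariate. Age cannot be told apart from the run S1 and S2. By edgeR 0 of 30 members passed, and 0.336% of all tested genes did (42 genes, but 0 to 58 when single libraries were left out). DESeq2 called 0 of 30 members and 3.06% of all tested genes. In both tools 3 of 30 members had an unadjusted p under 0.05, against 13.5% of all tested genes in edgeR. That share was not counted in DESeq2. Gnl3 was higher at 7 weeks, at 149 and 151 CPM against 113 to 143, with a log2 difference of 0.27 (SE 0.10, edgeR adjusted p = 0.255). Nhp2 was lower, at 55.9 and 54.0 CPM against 58.4 to 75.3 (-0.31, SE 0.12, edgeR adjusted p = 0.255), and so was Pes1 at 82.2 and 86.8 CPM against 87.1 to 112 (-0.24, SE 0.11, edgeR adjusted p = 0.333). None of these passed. The ages did not overlap at them, 3 of 30 members, as at 16.2% of all tested genes. Polr1a, with 119.6 and 141 CPM against 112 to 123, overlapped and had 0.19 (SE 0.089, edgeR adjusted p = 0.383), or 0.081 without Furin KO replicate 1 and 0.26 without WT replicate 1. Of the 30 members 16 were above 0 (49.0% of all tested genes), with a median of 0.019 that was -0.037 without WT replicate 1 and -0.031 without WT replicate 2. Among the other pathway genes 1 passed in edgeR, Mdn1, an ATPase of large subunit assembly (log2 difference 0.48, edgeR adjusted p = 0.0497). It had 475 CPM in WT replicate 1 and 642 CPM in Furin KO replicate 1, against 352 to 444 CPM at 8 weeks, so Furin KO replicate 1 alone stood far above. Of the 8 genes of activation and division 1 passed by age, Cd69 (log2 difference 0.80, edgeR adjusted p = 0.0497). Cd69 had 185 and 234.5 CPM at 7 weeks against 90.0 to 157 CPM at 8 weeks. The 42 calls by age over all genes were 1 without WT replicate 1, 11 without WT replicate 3, 0 without Furin KO replicate 1 or 2, 21 without replicate 4 and 19 without replicate 5.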

How the data were processed

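Total RNA of sorted naive CD8+ T cells was sequenced in 8 libraries, per the labels. The values deposited by the authors are unnormalized counts of reads per gene, in whole numbers, in 1 table. The submitters' processing notes name FastQC, Trim Galore, STAR, DESeq2 1.24.0 and the build GRCm38; no source used here gives the counting program, its annotation, its strand setting or its handling of multiply matching reads. Columns were matched by title and symbols by GENCODE M21 (55394 IDs matched, 179 did not). All genes were fitted in R 4.3.3 with edgeR 4.0.16 and limma 3.58.1, using TMM factors, filterByExpr and the two-sided quasi-likelihood test, and p-values were adjusted by Benjamini-Hochberg with a threshold of 0.05. DESeq2 1.42.0 and limma-voom were alternatives. The fits were also run on simulated counts with known changes, drawn independently for each library. Such counts cannot show how the test does where libraries share a run or a mouse. Single genes were also given an exact permutation test on log2(CPM + 1). Copies were stretches of at least 200 bases at 95% identity found with blastn in GENCODE transcripts. Depth was 11308220 to 21040431 counts per library, which limits the precision of low genes.

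The members and lists were chosen with earlier results of these data known. Values in every library are given for the 3 highest and 2 lowest members per kilobase, the 8 of lowest unadjusted p by genotype and 4 by age, and the 5 of widest library ratio; of each related list the 2 of lowest unadjusted p are eligible. Nop56 and other members given as means lie outside this rule. Replicate numbers follow accession order and pair nothing.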

Additional observations from a re-analysis of the deposited data

How the results depend on the processing

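0 of 30 members passed by genotype in all 18 alternatives and by age in all 15, and 0 related list genes passed by genotype in all 18. The median genotype difference of the members was 0.027 to 0.087 when 1 library was left out (0.027 without WT replicate 2) and 0.026 without Furin KO replicate 5 and WT replicate 2 together, chosen after seeing the data. Over all genes the 4 calls by genotype became 38 without a filter, 15 with DESeq2 and 12 with title runs as a factor, and 3 to 5 with 1 library left out; the cause was not tested. The 42 calls by age became 278 without a filter, 382 with DESeq2, 114 with limma-voom and 0 to 58 with 1 library left out, and the members' median by age 0.019 became -0.037 to 0.051. Named members near 0 changed sign by genotype. Gnl3 had -0.0011 with library size alone and -0.077 without that pair of libraries, Noc2l -0.031 and Pes1 -0.0042 without that pair. In the 8-week libraries alone Nop16 had -0.0057, Pes1 -0.024, Wdr12 0.049 and Nob1 0.080. Nob1 also had 0.0015 with limma-voom, 0.019 with age and 0.023 with title runs as a factor. With 1 library left out, Nhp2 ranged from -0.16 to 0.055, Gnl3 from -0.088 to 0.11, Noc2l from -0.0040 to 0.092, Nop16 from -0.0094 to 0.13, Pes1 from -0.057 to 0.11, Wdr12 from -0.21 to 0.0026 and Nob1 from -0.14 to 0.10. No paired analysis was possible because the labels give no replicate numbers that groups share; with title runs as a factor, the members' median was 0.058. Fbl had the fewest counts of the members, 107 in Furin KO replicate 3, which was not the library of lowest depth. The part of depth in its spread was not tested.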
